A study of Homo sapiens with 9 samples.

Results

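The genes described here are the mitotic regulators and kinetochore genes: a list of 46 genes that carry a cell from entry into mitosis through spindle attachment, separation of sister chromatids and cytokinesis, with the kinesins left out. Members were taken by gene symbol, and of the 46, 34 were measured among the 14884 genes with a named row on the array. The other 12, UBE2C, CENPE, CENPF, NUF2, SPC24, SPC25, NCAPG, NCAPH, ANLN, TPX2, ASPM and DLGAP5, had no RNA level analysed here and enter only the promoter counts, where their promoter was in the table. RNA was measured in the MDA-MB-231 line, which derives from a triple-negative breast carcinoma (no estrogen or progesterone receptor and no amplified HER2). JQ1 competes with acetylated histones for the bromodomains of BET proteins and so releases them from chromatin. The groups compared were 3 samples given 500 nM JQ1 for 12 h, 3 given 500 nM JQ1 for 24 h, and 3 control samples with no agent at time 0. The labels name no solvent for the controls and give 1 control time, so the effects of JQ1, solvent and time in culture cannot be told apart, and they do not say whether replicates were separate cultures.

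Entry into mitosis is driven by CDK1 bound to cyclin A or cyclin B, which CDC25 phosphatases activate and the Polo-like and Aurora kinases amplify. Kinetochores assemble on centromeres marked by CENPA and hold the microtubule ends through the NDC80 complex, while the spindle checkpoint (BUB1, BUB1B, BUB3, TTK, MAD2L1) holds back the ubiquitin ligase APC/C until every chromosome is attached. APC/C with its activator CDC20 then marks securin and cyclin B for destruction, separase cuts cohesin, and PRC1 and ECT2 organise the midzone and the cleavage furrow. Most of these genes are transcribed as a wave in G2, under control of the MuvB core with the DREAM repressors early in the cycle and with MYBL2 and FOXM1 later, through a promoter element called CHR, often below CCAAT boxes that bind NF-Y.

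Because that element is what the genes are known to share in their DNA, it was looked up in RefSeq promoters (GRCh38.p14) in the 250 bases before each annotated start. The letters searched on both strands were TTTGAA and TTCGAA for the CHR, CCAAT for the CCAAT box and, for comparison, TTTCGCGC and TTTGGCGC for E2F sites; none of these contains another, and a CCAATTGG counts as a CCAAT box on each strand. Of the 46 members, 40 had a promoter in the table. The CHR letters were found in 20 of the 40 (50%), against 15% of the tested genes and 17.2% of all genes with a promoter. A CCAAT box was found in 31 (77.5%), against 39.8% of the tested genes, and both letters together in 16 (40%), against 5.99%. E2F letters were found in CDK1 and NUSAP1 alone, which is 5% of the 40, against 1.53%. The CHR matches also lay close to the start: 16 of the 30 matches (53.3%) began within the last 50 bases, against 14.4% of the matches in tested genes. These are letter matches, not measured binding sites.

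The 150 bases before the start are printed below for 6 members. HMMR, PRC1 and ESPL1 are shown because their calls held in every leave-out described later and their promoters hold CHR letters within 50 bases of the start (ECT2, whose call also held, has CHR letters no nearer than −115); CCNB2 and CCNB1 because they are sister cyclins with and without them; and NDC80 because it had the lowest 24 h difference and none of the letters. Capitals mark TTTGAA and CCAAT on either strand (ATTGG is CCAAT read on the other strand).
HMMR, chr5:163460482-163460631, plus strand: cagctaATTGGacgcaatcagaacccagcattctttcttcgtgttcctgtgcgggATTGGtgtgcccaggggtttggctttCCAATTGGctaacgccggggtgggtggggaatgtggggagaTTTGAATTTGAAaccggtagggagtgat
PRC1, chr15:90994536-90994685, minus strand: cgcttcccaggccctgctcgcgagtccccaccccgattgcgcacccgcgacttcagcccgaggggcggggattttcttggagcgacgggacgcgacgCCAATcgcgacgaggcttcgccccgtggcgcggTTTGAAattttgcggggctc
ESPL1, chr12:53268149-53268298, plus strand: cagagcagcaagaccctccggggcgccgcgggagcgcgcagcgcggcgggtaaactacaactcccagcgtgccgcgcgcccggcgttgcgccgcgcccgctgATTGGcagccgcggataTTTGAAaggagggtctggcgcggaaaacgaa
CCNB2, chr15:59104996-59105145, plus strand: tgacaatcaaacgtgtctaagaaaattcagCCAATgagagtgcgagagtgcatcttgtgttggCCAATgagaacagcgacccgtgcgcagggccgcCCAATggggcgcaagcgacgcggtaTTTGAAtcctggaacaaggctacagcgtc
CCNB1, chr5:69167000-69167149, plus strand: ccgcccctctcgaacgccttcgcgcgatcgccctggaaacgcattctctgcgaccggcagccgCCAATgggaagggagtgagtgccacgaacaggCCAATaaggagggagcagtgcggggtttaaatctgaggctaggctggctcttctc
NDC80, chr18:2571407-2571556, plus strand: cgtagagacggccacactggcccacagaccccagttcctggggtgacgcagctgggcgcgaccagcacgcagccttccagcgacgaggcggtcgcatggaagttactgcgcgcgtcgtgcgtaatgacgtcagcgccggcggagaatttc
HMMR holds TTTGAA in tandem near the start, and PRC1, ESPL1 and CCNB2 hold it once, each below at least 1 CCAAT box. CCNB1 holds CCAAT boxes without CHR letters in this window, and NDC80 holds neither.

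**Figure D1:**
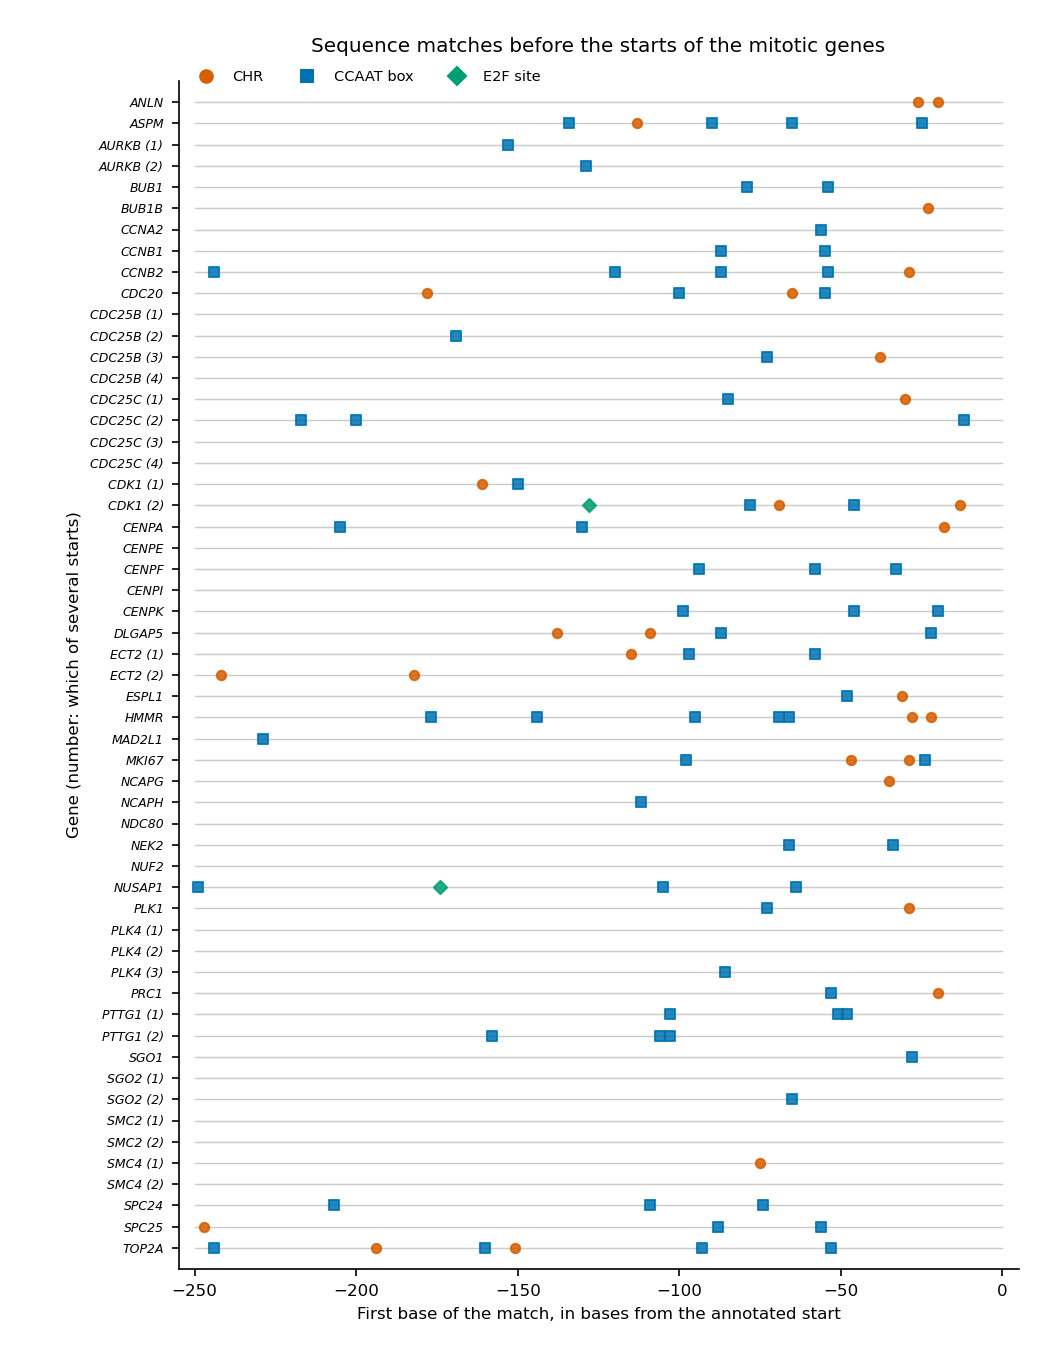
Position of each CHR (circle), CCAAT box (square) and E2F (diamond) letter match in the 250 bases before the annotated starts of the 40 members with a promoter, in bases from the start, with 1 line per start. Of the 30 CHR matches, 16 begin within the last 50 bases before the start.

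The deposited array values were on a log2 scale, with array medians between 4.92 and 4.96, so a change is always one relative to the rest of the array. Differences below are log2 differences from limma fitted to all 9 arrays and all 14884 genes, with p-values adjusted over all genes, and calls were made below an adjusted p of 0.05. The line's markers fitted the label in part: VIM, AXL and MSN stood at 10.5, 11.7 and 12.3, and ESR1, PGR and the monocyte marker CD14 at 5.04, 4.09 and 4.31. CD44, on the list of high markers, stood at 7.48, above 72.6% of the named genes. Of the epithelial genes on the list of low markers, KRT18 stood at 10.2, GATA3 at 6.68 and EPCAM at 6.26, above 97.6%, 59.4% and 52.3% of the named genes, and CAV1, CDH1, PTPRC and CD3E were not among the named rows. A pair of arrays stood apart from their own groups in the mitotic genes. Control replicate 3 was the highest control in 30 of the 34 members (36.2% of all genes), at a median of 0.56 above the mean of controls 1 and 2. JQ1 24 h replicate 2 was the highest 24 h array in 33 of the 34 (28.3% of all genes), at a median of 0.52 above the mean of the other 24 h arrays. Counts of calls and list medians at 24 h, and the members' 24 h differences that move by more than 1.5 times, are given with and without them.

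**Figure D2:**
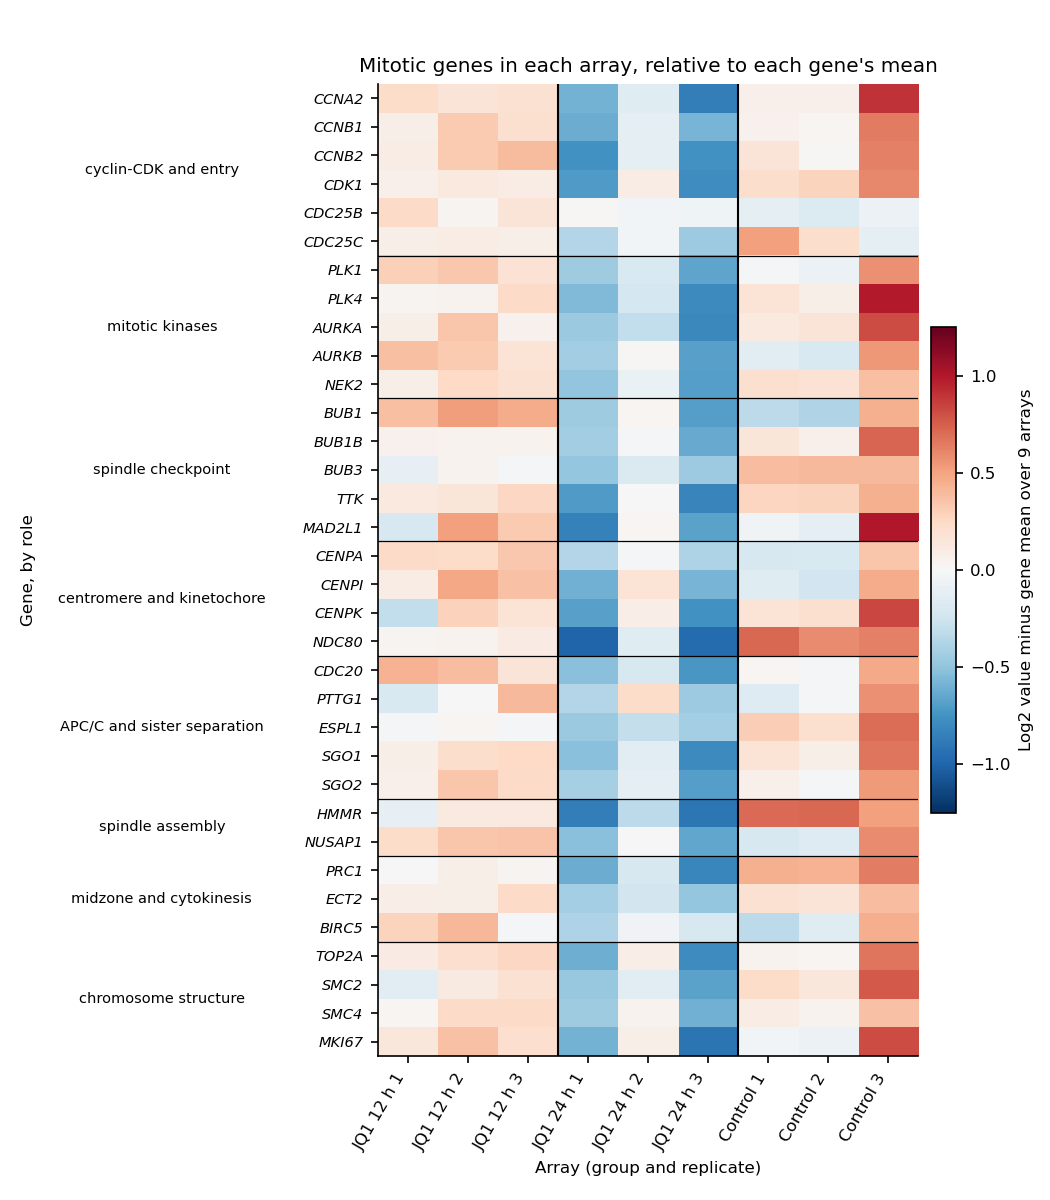
Log2 value minus the gene's mean over the 9 arrays (colour) for the 34 measured members, by role, in each array of JQ1 12 h, JQ1 24 h and control. JQ1 24 h replicates 1 and 3 are low across nearly all roles, JQ1 24 h replicate 2 lies near the mean, and control replicate 3 is the highest control in 30 of 34 genes.

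After 24 h of JQ1 genes of every mitotic role were called lower than in the controls. Of the 34 measured members, 17 (50%) were called lower, against 6.34% of all genes, and 0 were called higher, against 5.17% of all genes. The median member differed by −0.69, a 1.61-fold lower level, while the median of all genes was 0.01, and 33 of the 34 members lay below 0 (46.5% of all genes). The range ran from −1.35 for NDC80 to 0.10 for CDC25B. In 22 members every JQ1 24 h array was below every control array, against 12.8% of all genes. In RNA from a whole culture, fewer cells in G2 and mitosis and less mRNA per cell cannot be told apart. All 17 calls also stood without control replicate 3, where 18 members (11.3% of all genes) were called lower with CDC25C added, 0 were called higher (9.61% of all genes), and the median member differed by −0.52. They stood as well without JQ1 24 h replicate 2, where 22 members (4.47% of all genes) were called lower with BUB1B, CENPK, SGO2, TOP2A and SMC4 added, and the median member differed by −0.85. Both arrays were picked out by these members' own values. Leaving out JQ1 24 h replicate 2 was bound to lower the 24 h mean in 33 of the 34. Leaving out control replicate 3 was bound to lower the control mean in 31, and genes called lower or higher rose from 1714 to 3111. The calls kept in either setting are therefore no separate support. Without JQ1 24 h replicate 1 or replicate 3 instead, 6 of the 34 members were called lower each time and 0 higher. Of the 14884 genes, 914 and 786 were called in either direction.

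Among the cyclin-CDK genes of mitotic entry, 4 of 6 were called lower at 24 h, with a median of −0.75. CCNA2, the cyclin of S and G2 phase, read 9.86, 9.79 and 9.81 after 12 h of JQ1 and 9.04, 9.48 and 8.77 after 24 h, against 9.69, 9.69 and 10.53 in the controls. All 24 h arrays lay below all controls, by the least for replicate 2, and control 3 stood well above the other controls. Its difference at 24 h was −0.88 (SE 0.24, 1.83-fold, adjusted p = 0.046). CCNB1, the main mitotic cyclin, read 8.67, 8.93 and 8.80 after 12 h of JQ1 and 7.97, 8.47 and 8.01 after 24 h, against 8.65, 8.63 and 9.25 in the controls. Here too the 24 h group did not overlap the controls, while the 12 h arrays lay between control 3 and the other controls. CCNB1 differed at 24 h by −0.69 (SE 0.19, 1.61-fold, adjusted p = 0.046). CCNB2, the Golgi-associated cyclin B, read 8.74, 8.97 and 9.03 after 12 h of JQ1 and 7.88, 8.52 and 7.88 after 24 h, against 8.80, 8.66 and 9.27 in the controls. The 12 h arrays lay among the controls and all 24 h arrays below them, and the 24 h difference was −0.82 (SE 0.20, 1.76-fold, adjusted p = 0.033). CDK1, the kinase these cyclins activate, read 8.80, 8.85 and 8.83 after 12 h of JQ1 and 8.03, 8.83 and 7.96 after 24 h, against 8.96, 9.02 and 9.34 in the controls. JQ1 24 h replicate 2 matched the 12 h arrays, and replicates 1 and 3 lay well below, which gave −0.83 (SE 0.21, 1.78-fold, adjusted p = 0.034). The phosphatases that activate CDK1 were not called: CDC25C differed by −0.49 (95% interval −0.84 to −0.13, adjusted p = 0.083) and CDC25B by 0.10 (95% interval −0.07 to 0.27, adjusted p = 0.51).

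Of the 5 mitotic kinases, 3 were called lower at 24 h, with a median of −0.68. PLK4, the kinase that starts centriole duplication, read 7.20, 7.20 and 7.40 after 12 h of JQ1 and 6.61, 6.94 and 6.37 after 24 h, against 7.34, 7.24 and 8.16 in the controls. The 24 h arrays were all below the controls and control 3 was far above the other 8 arrays, with a difference of −0.94 (SE 0.23, 1.92-fold, adjusted p = 0.032). AURKA, which matures centrosomes and builds the bipolar spindle, read 7.79, 8.06 and 7.77 after 12 h of JQ1 and 7.26, 7.41 and 6.91 after 24 h, against 7.84, 7.88 and 8.53 in the controls. No 24 h array reached a control array, and the difference was −0.89 (SE 0.20, 1.86-fold, adjusted p = 0.020). NEK2, which splits the centrosome pair, read 7.56, 7.74 and 7.68 after 12 h of JQ1 and 6.99, 7.40 and 6.80 after 24 h, against 7.69, 7.67 and 7.87 in the controls. Its controls were closer together than those of PLK4 and AURKA, and it differed by −0.68 (SE 0.14, 1.60-fold, adjusted p = 0.016). PLK1, the Polo kinase of entry and spindle assembly, and AURKB, the kinase of the chromosomal passenger complex, were not called, at −0.59 (95% interval −0.99 to −0.19, adjusted p = 0.066) and −0.44 (95% interval −0.93 to 0.05, adjusted p = 0.25).

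Of the 5 spindle checkpoint genes, 2 were called lower at 24 h, with a median of −0.77. BUB3, which brings BUB1 and BUB1B to the kinetochore, read 9.93, 10.07 and 10.01 after 12 h of JQ1 and 9.54, 9.85 and 9.57 after 24 h, against 10.41, 10.43 and 10.43 in the controls. The SD of the controls was 0.01, and every 24 h array was below every 12 h array, which in turn was below every control. Its 24 h difference was −0.77 (SE 0.09, 1.71-fold, adjusted p = 0.0014). TTK, also called MPS1, the kinase at the top of the checkpoint, read 9.01, 9.03 and 9.14 after 12 h of JQ1 and 8.18, 8.89 and 8.06 after 24 h, against 9.16, 9.16 and 9.33 in the controls. Replicates 1 and 3 of the 24 h group lay far below all other arrays and replicate 2 just below the 12 h arrays, for a difference of −0.84 (SE 0.19, 1.79-fold, adjusted p = 0.021). The other checkpoint genes were not called: BUB1B, which encodes the inhibitor BubR1, differed by −0.68 (95% interval −1.11 to −0.25, adjusted p = 0.052), MAD2L1, which encodes the CDC20 inhibitor MAD2, by −0.78 (95% interval −1.53 to −0.03, adjusted p = 0.18), and the kinase gene BUB1 by −0.28 (95% interval −0.81 to 0.25, adjusted p = 0.54).

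At the centromere and kinetochore, 4 of 9 listed genes were measured and 1 was called lower at 24 h, with a median of −0.61. NDC80, the subunit that grips the microtubule, read 8.73, 8.74 and 8.79 after 12 h of JQ1 and 7.69, 8.54 and 7.73 after 24 h, against 9.40, 9.28 and 9.32 in the controls. Controls and 12 h arrays formed tight, separate groups, and the 24 h arrays lay below both, with replicate 2 nearest the 12 h arrays. NDC80 averaged 7.98 ± 0.48 at 24 h and 9.34 ± 0.06 in the controls (SD, n = 3 each), a difference of −1.35 (SE 0.19, 2.56-fold, adjusted p = 0.0031). The inner kinetochore genes CENPK and CENPI differed by −0.85 (95% interval −1.45 to −0.25, adjusted p = 0.074) and −0.36 (95% interval −0.91 to 0.18, adjusted p = 0.42), and CENPA, the histone H3 variant of centromeres, by −0.24 (95% interval −0.59 to 0.12, adjusted p = 0.42). None of these 3 was called.

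Among the genes of APC/C activation and sister separation, 5 of 6 were measured and 3 were called lower at 24 h, with a median of −0.64. CDC20, the activator of APC/C in mitosis and the target of the checkpoint, read 10.54, 10.48 and 10.26 after 12 h of JQ1 and 9.57, 9.90 and 9.37 after 24 h, against 10.13, 10.07 and 10.58 in the controls. All 24 h arrays were below the controls, while the 12 h arrays lay between control 3 and the other controls. CDC20 differed by −0.64 (SE 0.17, 1.56-fold, adjusted p = 0.038). ESPL1, which encodes separase, the protease that cuts cohesin, read 6.57, 6.62 and 6.57 after 12 h of JQ1 and 6.14, 6.30 and 6.17 after 24 h, against 6.90, 6.80 and 7.29 in the controls. The 3 groups did not overlap, with the 24 h arrays lowest and with an SD of 0.08. Its difference was −0.79 (SE 0.12, 1.73-fold, adjusted p = 0.0042). SGO1, shugoshin, which protects centromeric cohesin, read 8.74, 8.90 and 8.92 after 12 h of JQ1 and 8.15, 8.53 and 7.88 after 24 h, against 8.84, 8.74 and 9.34 in the controls, with the 24 h arrays below all controls. It differed by −0.79 (SE 0.19, 1.73-fold, adjusted p = 0.028). SGO2, its paralog, and PTTG1, which encodes the separase inhibitor securin, were not called, at −0.59 (95% interval −0.99 to −0.19, adjusted p = 0.064) and −0.33 (95% interval −0.88 to 0.22, adjusted p = 0.49).

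In spindle assembly, 2 of 5 listed genes were measured and 1 was called lower at 24 h, with a median of −0.90. HMMR, a microtubule-associated protein of spindle poles, whose promoter holds the tandem TTTGAA above, read 7.83, 8.06 and 8.06 after 12 h of JQ1 and 7.07, 7.61 and 7.03 after 24 h, against 8.64, 8.65 and 8.44 in the controls. Each 24 h array was below each 12 h array, and each 12 h array below each control. HMMR averaged 7.24 ± 0.32 at 24 h and 8.58 ± 0.12 in the controls (SD, n = 3 each), a difference of −1.34 (SE 0.15, 2.53-fold, adjusted p = 0.0012). NUSAP1, a spindle protein near chromosomes, was not called, at −0.47 (95% interval −0.97 to 0.04, adjusted p = 0.24).

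At the midzone and in cytokinesis, 3 of 4 were measured and 2 were called lower at 24 h, with a median of −0.62. PRC1, which bundles antiparallel microtubules between the separating chromosomes, read 9.23, 9.30 and 9.26 after 12 h of JQ1 and 8.60, 9.03 and 8.40 after 24 h, against 9.67, 9.66 and 9.87 in the controls. The 3 groups were in separate ranges, lowest at 24 h, and the difference was −1.06 (SE 0.14, 2.08-fold, adjusted p = 0.0024). ECT2, the exchange factor that activates RhoA at the cleavage site, read 10.05, 10.04 and 10.21 after 12 h of JQ1 and 9.54, 9.74 and 9.49 after 24 h, against 10.16, 10.13 and 10.36 in the controls. The 12 h arrays overlapped the controls and the 24 h arrays lay below both groups, with a difference from control of −0.62 (SE 0.10, 1.54-fold, adjusted p = 0.0048). BIRC5, which encodes survivin, a passenger complex subunit, was not called, at −0.20 (95% interval −0.65 to 0.25, adjusted p = 0.61).

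Of the chromosome structure genes, 4 of 6 were measured and 1 was called lower at 24 h, with a median of −0.70. SMC2, the condensin ATPase, read 8.45, 8.70 and 8.78 after 12 h of JQ1 and 8.12, 8.46 and 7.93 after 24 h, against 8.83, 8.73 and 9.36 in the controls. The 24 h arrays lay below the controls, and control 3 was again the highest array of all. SMC2 differed by −0.81 (SE 0.19, 1.75-fold, adjusted p = 0.025). Its condensin partner SMC4, the decatenating enzyme TOP2A and MKI67, the gene of the proliferation antigen Ki-67, were not called, at −0.50 (95% interval −0.87 to −0.13, adjusted p = 0.085), −0.68 (95% interval −1.21 to −0.15, adjusted p = 0.10) and −0.71 (95% interval −1.35 to −0.08, adjusted p = 0.15). Across all roles the 17 uncalled members had 16 differences below 0. Among them MAD2L1, MKI67, CENPK, PTTG1, CENPI, TOP2A and BUB1 had the widest intervals.

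Several of the uncalled differences and of the role medians rested on control replicate 3. Without it the 24 h difference was −0.01 for BUB1, −0.06 for CENPA, −0.10 for PTTG1, −0.14 for CENPI, −0.21 for AURKB and for NUSAP1, and 0.03 for BIRC5. It was −0.38 for PLK1, and −0.42 for MAD2L1 and for MKI67. All of these were smaller than with all arrays by more than 1.5 times, or of the other sign in BIRC5. The medians without control replicate 3 were −0.47 for the spindle checkpoint, −0.39 for the centromere and kinetochore and −0.45 for chromosome structure, and between −0.81 and −0.48 for the other roles. Without JQ1 24 h replicate 2 the differences were larger instead, at −0.48 for BUB1, −0.36 for CENPA, −0.54 for PTTG1 and −0.62 for CENPI, and the role medians lay between −1.09 and −0.70.

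**Figure D3:**
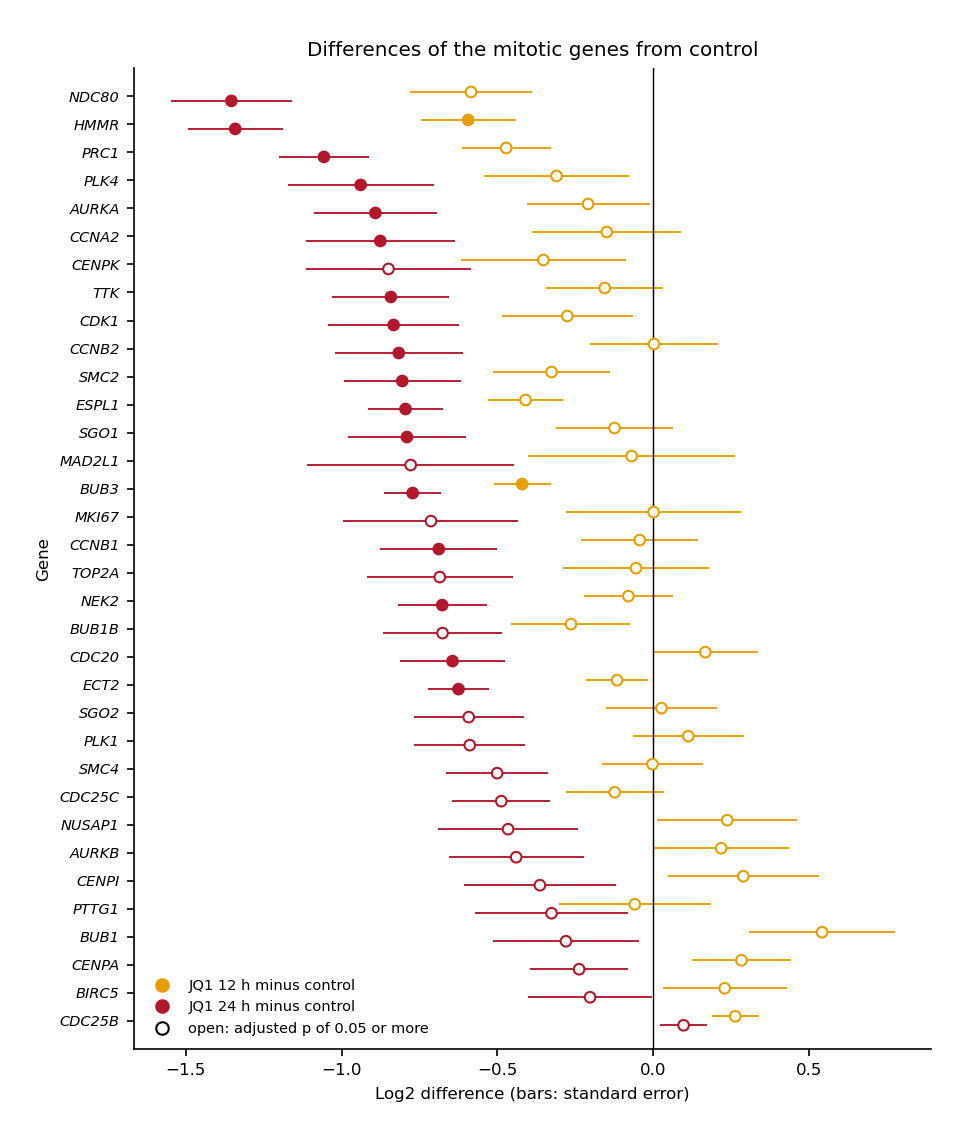
Log2 difference from control of the 34 measured members (x axis, bars show the standard error) after 12 h (orange) and 24 h (red) of JQ1, ordered by the 24 h difference, with filled points for adjusted p under 0.05. The 17 filled 24 h points lie between −1.35 and −0.62, and the 12 h points are filled for BUB3 and HMMR.

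The 17 calls at 24 h were not equally firm. Whichever of the 9 arrays was left out, 6 stayed called: BUB3, NDC80, ESPL1, HMMR, PRC1 and ECT2, with highest adjusted p of 0.010, 0.018, 0.024, 0.0081, 0.014 and 0.027. AURKA, NEK2 and SMC2 lost the call only without JQ1 24 h replicate 1 or 3, with adjusted p up to 0.085, 0.067 and 0.10. The other 8, CCNA2, CCNB1, CCNB2, CDK1, PLK4, TTK, CDC20 and SGO1, each lost it without control replicate 1 and without JQ1 24 h replicate 1 or 3, and stayed called in 2 to 5 of the 9 leave-outs, with adjusted p up to 0.17. All of these but TTK also lost it without JQ1 12 h replicate 2, as did CCNA2, CCNB1, CDK1, PLK4 and CDC20 without JQ1 12 h replicate 1. CCNA2, CCNB1, CCNB2, CDK1, PLK4 and CDC20 lost it without JQ1 12 h replicate 3, and CCNA2, CCNB1, CDK1, TTK and CDC20 without control replicate 2.

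**Figure D4:**
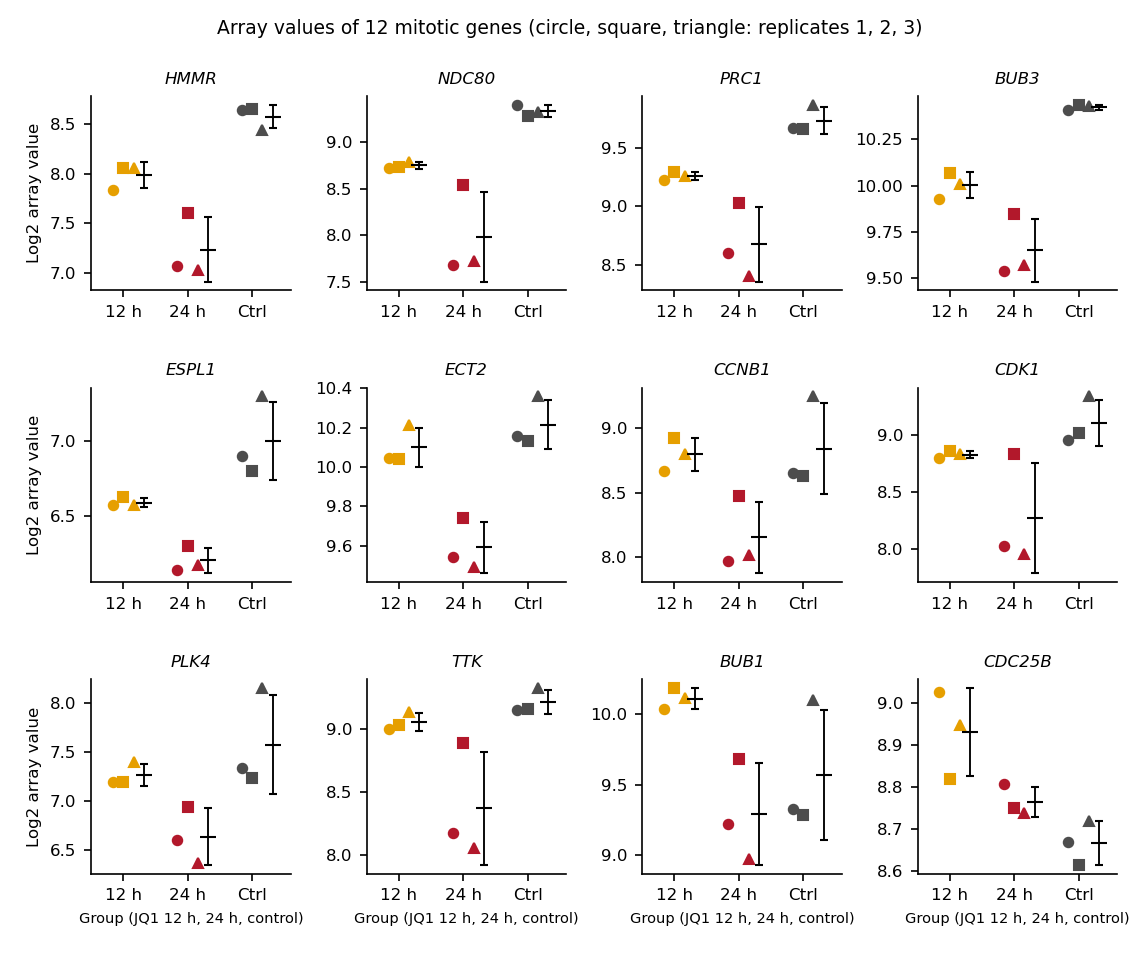
Log2 array value of 12 members in each array of JQ1 12 h, JQ1 24 h and control, with the group mean and SD as bars and the replicate number as the symbol. HMMR, NDC80, PRC1, BUB3 and ESPL1 form separate steps in the 3 groups, whereas the controls of CCNB1, PLK4 and BUB1 are spread by replicate 3.

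After 12 h of JQ1 few of the mitotic genes differed from the controls. Of the 34 members, 2 were called lower, against 4.39% of all genes, and 0 higher, against 3.54%. The median member differed by −0.07, with 22 of 34 below 0 (47.0% of all genes), and the range ran from −0.59 for HMMR to 0.54 for BUB1. HMMR differed at 12 h by −0.59 (SE 0.15, adjusted p = 0.047) and BUB3 by −0.42 (SE 0.09, adjusted p = 0.025), with no overlap with the controls in either. NDC80, PRC1 and ESPL1 came nearest after them, at −0.58 (SE 0.19, adjusted p = 0.11), −0.47 (SE 0.14, adjusted p = 0.084) and −0.41 (SE 0.12, adjusted p = 0.077). These 5 (14.7%) were also the members lower at an unadjusted p under 0.05, against 11% of all genes. They are 5 of the 6 whose 24 h calls stood in every leave-out. Both comparisons share the control arrays and each gene's estimate of the spread, so that overlap is no separate support. All 12 h arrays were below all controls in 8 members (10.9% of all genes): these 5 with CDK1, BUB1B and TTK. The 12 h call of BUB3 stood in 4 of the 9 leave-outs, with adjusted p between 0.012 and 0.090, and that of HMMR in 2, between 0.011 and 0.15.

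Some members were higher than the controls at 12 h, in shares below or near those of all genes. BUB1, the checkpoint kinase gene, read 10.04, 10.18 and 10.12 after 12 h of JQ1 and 9.22, 9.68 and 8.97 after 24 h, against 9.33, 9.28 and 10.10 in the controls. All 12 h arrays were above controls 1 and 2 and near control 3, which lay far above the other controls. Its 12 h difference was 0.54 (95% interval 0.01 to 1.07, adjusted p = 0.22). CDC25B, a phosphatase gene of mitotic entry, read 9.03, 8.82 and 8.95 after 12 h of JQ1 and 8.81, 8.75 and 8.74 after 24 h, against 8.67, 8.61 and 8.72 in the controls. The 12 h arrays lay above all controls and the difference was 0.26 (95% interval 0.09 to 0.43, adjusted p = 0.070). These were the 2 members (5.88%) higher at an unadjusted p under 0.05, against 10.5% of all genes. Without control replicate 3, the members called lower at 12 h were again BUB3 and HMMR (10.5% of all genes), and 4 were called higher (9.57% of all genes): BUB1 by 0.81 (adjusted p = 0.0089), CENPA by 0.46 (0.018), CDC25B by 0.29 (0.038) and BIRC5 by 0.46 (0.049). BUB1, CDC25B, CENPA and BIRC5, 11.8% of the members, were singled out at 12 h after their values had been seen. Control replicate 3 was above the mean of the other controls in 31 of 34 members. Leaving it out was therefore bound to raise their 12 h differences.

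Between the treatment times, all 34 members were lower at 24 h than at 12 h (49.7% of all genes), with a median difference of −0.63, while the median of all genes was 0.00. None was called lower or higher by limma after adjustment, where 0.00672% of all genes, or 1 gene, was lower and 0% higher. At an unadjusted p under 0.05, 28 members were lower, against 3.41% of all genes, and in 27 every 24 h array was below every 12 h array, against 7.11%. NDC80 differed by −0.77 (SE 0.19, adjusted p = 0.46), HMMR by −0.75 (SE 0.15, adjusted p = 0.38), CDC20 by −0.81 (SE 0.17, adjusted p = 0.38) and CCNB2 by −0.82 (SE 0.20, adjusted p = 0.45). Without JQ1 24 h replicate 2, NDC80 and TTK were called lower at 24 h than at 12 h, with differences of −1.05 (adjusted p = 0.012) and −0.94 (adjusted p = 0.023), among 5 genes in all (0.0336%). The comparisons of 12 h and 24 h with control share the control arrays, and those of 24 h share the 24 h arrays.

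The members varied together from array to array. Over the 9 arrays the median correlation between pairs of members was 0.86 (561 pairs that share arrays), which is a description and includes the differences between groups, and CDC25B was least like the others. Taking each gene's distance from its own mean, the median member stood at 0.08, 0.23 and 0.19 in the 12 h arrays and at −0.51, −0.07 and −0.68 in the 24 h arrays, against 0.11, 0.05 and 0.58 in the controls. JQ1 24 h replicate 2 was thus close to controls 1 and 2 in the median member. Set against the mean of controls 1 and 2, it was lower in 23 of 34 members, at a median of −0.16, whereas the mean of JQ1 24 h replicates 1 and 3 was lower in 33, at a median of −0.70. For single members that distance ran from −1.04 for HMMR to 0.38 for BUB1.

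Control replicate 3 read high in genes of S phase entry as well. The 23 measured genes of G1/S and DNA replication had a median distance of 0.05, 0.24 and 0.04 in the 12 h arrays and of −0.23, −0.07 and −0.30 in the 24 h arrays, against −0.34, −0.34 and 0.87 in the controls. In all 23, control 3 exceeded the average of the other controls, at a median of 1.20. Its part in the mitotic genes' differences was not tested, other than by the values without control replicate 3. Of the 23 genes, 2 were called lower at 24 h, against 6.34% of all genes, and 0 higher. The 2 were GINS3, a subunit of the replicative helicase complex, at −0.85 (SE 0.16, adjusted p = 0.0095), and CDC6, which loads that helicase, at −0.76 (SE 0.18, adjusted p = 0.024). The median of the 23 was −0.35, and it turned to 0.12 without control replicate 3. In that setting GINS3 and CDC6 were again called lower (11.3% of all genes). CCNE1, MCM4, PCNA, RRM2 and SLBP, named after their values were seen, were called higher (9.61% of all genes). Without JQ1 24 h replicate 2 the median was −0.42, with GINS3 and CDC6 called lower (4.47% of all genes).

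**Figure D5:**
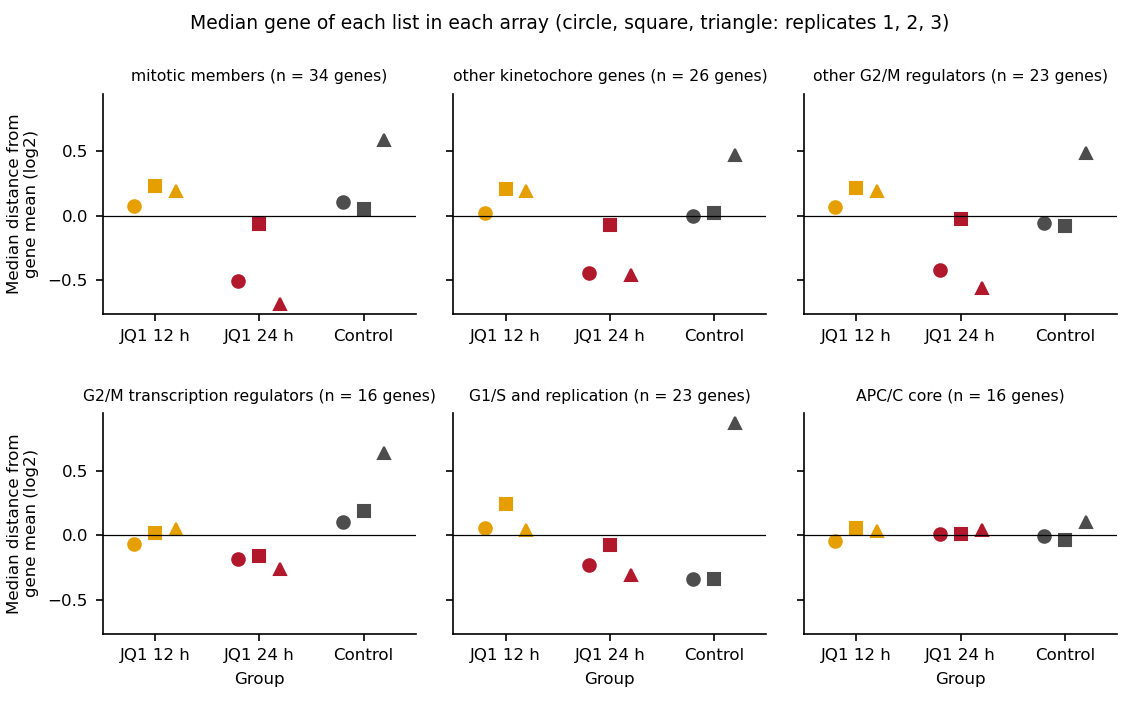
Median over a list's genes of the log2 distance from each gene's mean over the 9 arrays, for each array, with panels for the mitotic members and 5 other cell cycle lists and the replicate number as the symbol. Mitotic, kinetochore and other G2/M genes share the low JQ1 24 h replicates 1 and 3, and G1/S genes stand out in control replicate 3. The median of the APC/C core list stays between −0.04 and 0.10, while single genes of it vary more.

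The genes known to control the G2 transcription wave were lower in part. For this list and those that follow, the figures over all genes at 24 h are 6.34% called lower, 5.17% called higher and a median of 0.01. Without control replicate 3 they are 11.3% lower, 9.61% higher and a median of 0.01. Without JQ1 24 h replicate 2 they are 4.47% lower and a median of 0.02. Of the 16 measured regulators (21 listed), 5 were called lower at 24 h and 0 higher, with a median of −0.45. MYBL2, the activator that joins MuvB in S phase, read 10.01, 10.07 and 9.73 after 12 h of JQ1 and 8.93, 9.18 and 8.80 after 24 h, against 9.89, 9.87 and 10.66 in the controls. All 24 h arrays lay below all controls, the difference was −1.17 (SE 0.21, adjusted p = 0.0086), and the call stood in every leave-out. FOXM1, which joins the complex in G2, read 8.40, 8.65 and 8.44 after 12 h of JQ1 and 7.91, 8.39 and 7.77 after 24 h, against 8.32, 8.39 and 9.23 in the controls. Its 24 h replicate 2 overlapped the controls, control 3 was the highest array, and the difference of −0.62 (95% interval −1.17 to −0.07, adjusted p = 0.15) was not called; without control replicate 3 it was −0.33. Among the MuvB and DREAM genes, LIN9 was lower at −0.82 (SE 0.18, adjusted p = 0.018). LIN54, the subunit that binds the CHR, was lower at −0.54 (SE 0.13, adjusted p = 0.028), and RBL1, which encodes p107, at −0.84 (SE 0.20, adjusted p = 0.025). LIN52, LIN37, RBBP4, RBL2 (p130) and the DP subunits TFDP1 and TFDP2 were not called, at −0.37, 0.14, 0.10, 0.02, −0.14 and −0.31. Without control replicate 3, 8 regulators were lower, with TFDP2, E2F7 and E2F8 added, 2 were higher, RBBP4 and E2F1, and the median was −0.36; the added genes other than RBBP4 and TFDP2 are named after their values were seen. Without JQ1 24 h replicate 2, 5 regulators were lower, and the median was −0.45. E2F3, an activating E2F, was lower at both times, with differences of −0.88 (SE 0.11, adjusted p = 0.0031) at 12 h and −1.0 (SE 0.11, adjusted p = 0.0012) at 24 h.

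The 24 h differences of members with and without the promoter letters covered like values. The 15 measured members with CHR letters had a median of −0.68 with 7 called lower, and the 15 without them a median of −0.69 with 7 called lower. With a CCAAT box the median was −0.68 (25 members, 12 called), and without one it was −0.68 (5 members, 2 called). NDC80 and HMMR, the members with the lowest differences, carry none and several of the letters.

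Kinetochore genes outside the member list were lower in part. Of 26 measured (33 listed), 8 were called lower at 24 h and 0 higher, with a median of −0.48. CENPQ, an inner kinetochore subunit, was lower at both times, with −0.74 (SE 0.15, adjusted p = 0.017) at 12 h and −1.49 (SE 0.15, adjusted p = 0.00067) at 24 h. SKA3 and SKA1, of the complex that follows shrinking microtubule ends, were lower at 24 h, with −1.16 (SE 0.23, adjusted p = 0.013) and −1.08 (SE 0.18, adjusted p = 0.0057), and CDCA8, which encodes the passenger protein borealin, with −1.12 (SE 0.13, adjusted p = 0.0013). Without control replicate 3 the count was again 8, though 11.3% of all genes were then called lower, and the median was −0.30. Without JQ1 24 h replicate 2 they were 11 (4.47% of all genes) and −0.61. Of 23 other measured G2/M genes (34 listed), 7 were called lower and 0 higher, with a median of −0.48. DEPDC1 was lower at both times, with −0.74 (SE 0.18, adjusted p = 0.034) at 12 h and −1.55 (SE 0.18, adjusted p = 0.0012) at 24 h. ARHGAP11A, MASTL, which encodes the Greatwall kinase, and HMGB2 were lower at 24 h, with −0.90 (SE 0.22, adjusted p = 0.031), −0.83 (SE 0.15, adjusted p = 0.0095) and −0.77 (SE 0.17, adjusted p = 0.018). The count of this list was again 7 without control replicate 3 (11.3% of all genes), with a median of −0.32. It was 10 without JQ1 24 h replicate 2 (4.47% of all genes), with a median of −0.60.

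The list of core genes of APC/C, the ligase that the checkpoint restrains, had a median close to that of all genes. The list also holds FZR1 and UBE2S, which work with the ligase and are not subunits of its core. Of its 16 genes, all measured, 2 were called lower at 24 h, and the list's median was 0.08. These were CDC23, at −0.59 (SE 0.16, adjusted p = 0.044), and ANAPC13, at −0.42 (SE 0.11, adjusted p = 0.036) and, at 12 h, −0.49 (SE 0.11, adjusted p = 0.025); CDC23 stayed called in 2 of the 9 leave-outs and ANAPC13 in 3. Without control replicate 3, 4 core genes were called higher, ANAPC2, ANAPC5, ANAPC7 and ANAPC15, named after their values were seen, and the median was 0.10. Without JQ1 24 h replicate 2, 0 genes of this list were called, and the median was 0.10. Of 11 measured cohesin and other condensin genes (17 listed), 2 were called lower at 24 h, with a median of −0.26: STAG2, a cohesin subunit that was also lower at 12 h with −0.36 (SE 0.09, adjusted p = 0.041), at −0.51 (SE 0.09, adjusted p = 0.0079), and WAPL, which releases cohesin, at −0.48 (SE 0.08, adjusted p = 0.0048). Of 7 measured centriole genes (23 listed), 2 were called lower with a median of −0.27: SASS6, which forms the cartwheel of new centrioles, at −1.0 (SE 0.18, adjusted p = 0.0098), and STIL at −0.71 (SE 0.19, adjusted p = 0.039). The centriole median was −0.01 without control replicate 3, where SASS6 alone was called. The cohesin and condensin median was then −0.18, with MAU2, named after its values were seen, called lower as well. Without JQ1 24 h replicate 2 the centriole median was −0.32, with SASS6 and STIL called lower. The cohesin and condensin median was then −0.34, with STAG2 and WAPL called lower. Among 7 measured G1 cyclins and kinases (9 listed), CDK6 and CDK4 were lower at 24 h, with −1.09 (SE 0.12, adjusted p = 0.0011) and −0.61 (SE 0.10, adjusted p = 0.0065). Both were lower at 12 h too, with −0.87 (SE 0.12, adjusted p = 0.0040) and −0.58 (SE 0.10, adjusted p = 0.011). CCND1, cyclin D1, was higher at 24 h by 0.67 (SE 0.11, adjusted p = 0.0067). The median of this list was −0.17. It was −0.14 without control replicate 3 and −0.20 without JQ1 24 h replicate 2, with CDK4, CDK6 and CCND1 called in each setting. Of the 24 non-members named here as called at 24 h, 14 stayed called whichever array was left out. LIN9, LIN54, RBL1, SKA3, ARHGAP11A, HMGB2, STIL, CDC6, CDC23 and ANAPC13 did not, and each of them lost the call without JQ1 24 h replicate 1 and without replicate 3. STIL stayed called in 1 of the 9 leave-outs. At 12 h the calls of E2F3, CDK4 and CDK6 stood in all 9 leave-outs, that of CENPQ in 8, ANAPC13 in 5, DEPDC1 in 3 and STAG2 in 2.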

How the data were processed

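Total RNA of 9 samples was hybridised to Affymetrix Human Gene 2.0 ST arrays, 1 array a sample. The values are log2 expression values deposited by the authors, 53617 rows over 9 columns; the log2 scale was read from the deposited values, which ran from 2.01 to 13.88. The submitters' processing notes name Transcriptome Analysis Console, with version, normalization and probe summary not given in the sources used here. Array medians this close remove changes in total RNA.

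Of the rows, 16098 carried 1 gene symbol through the platform's gene table, and 37519 are unnamed here. The row with the highest mean stood for each of 779 genes with several rows, which left 14884 genes; no member had more than 1 row. The test was limma 3.58.1, run in R 4.3.3, with 1 mean per group over all 9 arrays, empirical Bayes moderation (3.14 prior degrees of freedom), and Benjamini-Hochberg adjustment over all genes within each comparison. No dim genes were removed, and all members lay at or above the median gene. Array spots give no read depth, and 3 arrays a group limit the precision. Nothing states that replicates were separate cultures, so p-values reflect only the scatter of these 9 samples, possibly technical. Alternatives were each array left out, each comparison fitted alone, quantile normalization, a filter on dim genes, a mean-variance trend, the lowest row per gene, and replicate numbers as a block.

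Members and lists were chosen with earlier results of these data known. Each measured member is named; array values are given for members called at 12 h or 24 h, and at most 4 called genes of each other list and comparison are named, with FOXM1, MYBL2 and the measured MuvB and DREAM genes always given. Genes named outside this rule are marked in the text as named after their values were seen. CENPU was moved from the regulators to the kinetochore genes after the lists were first written.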

Additional observations from a re-analysis of the deposited data

Results flagged for a closer look

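In PLK1, AURKB and NUSAP1 every JQ1 12 h array was above the control mean and every JQ1 24 h array below it. PLK1 lay 0.02 to 0.18 above at 12 h and −0.82 to −0.35 at 24 h, a log2 difference of −0.70 between 24 h and 12 h (limma, adjusted p = 0.46). AURKB lay 0.10 to 0.30 above at 12 h and −0.75 to −0.06 at 24 h, a difference of −0.66 (adjusted p = 0.58). NUSAP1 lay 0.16 to 0.28 above at 12 h and −0.72 to −0.08 at 24 h, a difference of −0.70 (adjusted p = 0.56). None of these differences between the times was called, and 79 of the 14884 genes (0.531%) showed the same split. Control replicate 3 read higher than the other controls in all 3 genes. Set against the mean of controls 1 and 2, JQ1 24 h replicate 2 lay above it in AURKB (0.17) and NUSAP1 (0.18) and below it in PLK1 (−0.14). Without control replicate 3 the split is therefore not seen in AURKB and NUSAP1, while in PLK1 it is still seen.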

How the results depend on the processing

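Leaving out 1 array at a time, the members called lower at 24 h numbered 6 to 22 (17 with all arrays), those called lower at 12 h 0 to 4, those called higher at 12 h 0 to 4, and those lower at 24 h than at 12 h 0 to 2. Genes called over the whole table numbered 786 to 3111 at 24 h (1714 with all arrays), 543 to 2986 at 12 h (1181) and 1 to 22 between the times (1). With each comparison fitted alone, 6 members were lower at 24 h and 4 at 12 h, with 994 and 577 genes called; here each fit rests on 6 arrays. A mean-variance trend left 1 member lower at 12 h. The members' median stayed between −0.85 and −0.52 at 24 h, between −0.16 and 0.11 at 12 h and between −0.80 and −0.49 between the times, leaving out each array. The deviations of same-numbered arrays correlated between −0.32 and 0.22, and those of differently numbered arrays between −0.27 and 0.29. With 3 arrays a group this cannot settle whether same-numbered samples were paired. With the replicate block, 11 members were lower at 24 h, and 967, 1478 and 1 genes were called at 12 h, 24 h and between the times. Quantile normalization gave 18 members lower at 24 h, with 1763 of 14884 genes called lower or higher. The trend gave 17 members (1553 genes) and the lowest row per gene 17 (1648 genes). The dim filter gave 21 members, but with 1740 of only 7442 genes called, so a larger share of all genes was called there too. Some uncalled 24 h differences changed sign as arrays were left out: that of BIRC5 ran from −0.36 to 0.029 and was above 0 without control replicate 3, that of TFDP1 ran from −0.36 to 0.18 and was above 0 without control replicate 3, that of LIN37 ran from −0.17 to 0.32 and was below 0 without control replicate 3 or JQ1 24 h replicate 1, that of RBBP4 ran from −0.087 to 0.46 and was below 0 without control replicate 1 or 2, and that of RBL2 ran from −0.079 to 0.20 and was below 0 without control replicate 1 or 2 or JQ1 24 h replicate 1 or 3. The causes were not tested. The arrays give no detection calls, so the signal over background behind a value is unknown.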
